A study of Glycine max with 12 samples.

Results

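The transcripts described here are the 69 intergenic lncRNAs of young soybean pods that were selected on a high mean expression. They were chosen from the deposited table of 11072 lncRNA transcripts as those with class code u, which marks a transcript that overlaps no annotated gene, on chromosomes 1 to 20, with an arithmetic mean of at least 10 FPKM over all 12 libraries. FPKM is the number of sequenced fragments scaled by transcript length and by library size. The table held 4302 intergenic lncRNAs on these chromosomes, so that 4233 of them lay under the limit. The level itself is therefore not a finding, and the levels below are given as a description. The libraries came from young pods of Glycine max and fell into 4 groups of 3 biological replicates. MT_40 (libraries MT_4, MT_5 and MT_6) and MT_30 (MT_7, MT_8 and MT_9) are pods of MT72, a low-linolenic acid mutant in the fourth generation, taken 40 and 30 d after flowering. JN_40 (JN_4, JN_5 and JN_6) and JN_30 (JN_7, JN_8 and JN_9) are pods of the wild type JN18, a high-oil variety, at the same 2 ages. MT72 was obtained by exposing soybean to ethyl methanesulfonate, a chemical that causes point mutations, and the sources used here do not state which variety was exposed. The mutation behind the low linolenic acid and all other differences between the 2 lines cannot be told apart.

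Intergenic lncRNAs are transcribed from the stretches between protein-coding genes, mostly by RNA polymerase II, and many of them are capped and spliced like mRNAs. In Arabidopsis the intergenic lncRNA IPS1 binds the phosphate-starvation microRNA miR399 and keeps it from its mRNA target, which is the best known mode of action of such transcripts in plants. Most intergenic lncRNAs are present at low levels and in few tissues, so that a transcript of this class at a high level in all libraries is uncommon. The deposited table gives no function for the transcripts below, the functions that the study predicted for a few of them were not used here, and the names (MSTRG numbers) are those given by the assembly. Soybean pods of these ages hold the pod wall and filling seeds, and in such a bulk tissue fewer cells of a type and less RNA per cell cannot be told apart.

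Depth was similar among the libraries, at 10.0 to 12.3 gigabases of aligned sequence, computed from the ratio of coverage to FPKM. Library JN_9 stood apart, since 2847 transcripts of the table were at 0 there and 2074 to 2360 in any other library, and results that rest on it are given with and without it. The 69 transcripts differed in which library was highest. MT_9 held the highest value for 31 of them, MT_8 for 10 and JN_5 for 7, while JN_9 alone held the lowest value for 17, JN_4 for 16 and JN_7 for 9. The part of single libraries in the comparisons below is therefore given by leaving each one out. The positions are those of the deposited table, and the genome build behind them is not stated there or in the study's methods.

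The level of the 69 transcripts spanned more than 2 orders of magnitude. Of these, 16 had a mean of at least 100 FPKM, 25 lay from 20 to 100 and 28 from 10 to 20, with a median of 25.6. The highest was MSTRG.17790.1 (chromosome 15, 40605761 to 40606100, minus strand, 1 exon, 340 bases), with a mean of 3588 FPKM. Its FPKM was 4833, 3965 and 2439 in MT_40 and 2412, 3729 and 4441 in MT_30, against 3197, 4204 and 4287 in JN_40 and 5008, 2620.2 and 1921 in JN_30, and all 4 groups overlapped. This 1 transcript made up 25.6% to 49.6% of the summed FPKM of the 69 transcripts in a library.

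The second was MSTRG.4517.1 (chromosome 10, 45696434 to 45696874, plus strand, 1 exon, 441 bases), with a mean of 979 FPKM. It had 791, 816 and 1118 FPKM in MT_40 and 1269, 1957 and 1652 in MT_30, against 336, 1020.2 and 458 in JN_40 and 1451, 878 and 8.51 in JN_30. Library JN_9 was far below every other library for this transcript. Ranks 3 to 5 were the 3 transcripts of 1 locus, MSTRG.11696.1, MSTRG.11696.3 and MSTRG.11696.2, with means of 884, 528 and 334 FPKM. Ranks 6 to 10 were single-exon transcripts. MSTRG.28219.1 (chromosome 19, 49002472 to 49003144, no strand, 1 exon, 673 bases) averaged 299.8 FPKM and ranged over 0.624 to 859, with its lowest value in JN_7. MSTRG.44031.1 (chromosome 6, 47835670 to 47835953, no strand, 1 exon, 284 bases) averaged 264 and ranged over only 153 to 341. MSTRG.35056.1 (chromosome 3, 34305048 to 34305372, minus strand, 1 exon, 325 bases) averaged 239 FPKM, MSTRG.33173.1 (chromosome 20, 41377709 to 41378018, no strand, 1 exon, 310 bases) averaged 228 FPKM and MSTRG.4566.1 (chromosome 10, 46167692 to 46168258, minus strand, 1 exon, 567 bases) averaged 206 FPKM. All 3 were highest in MT_9.

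**Figure D1:**
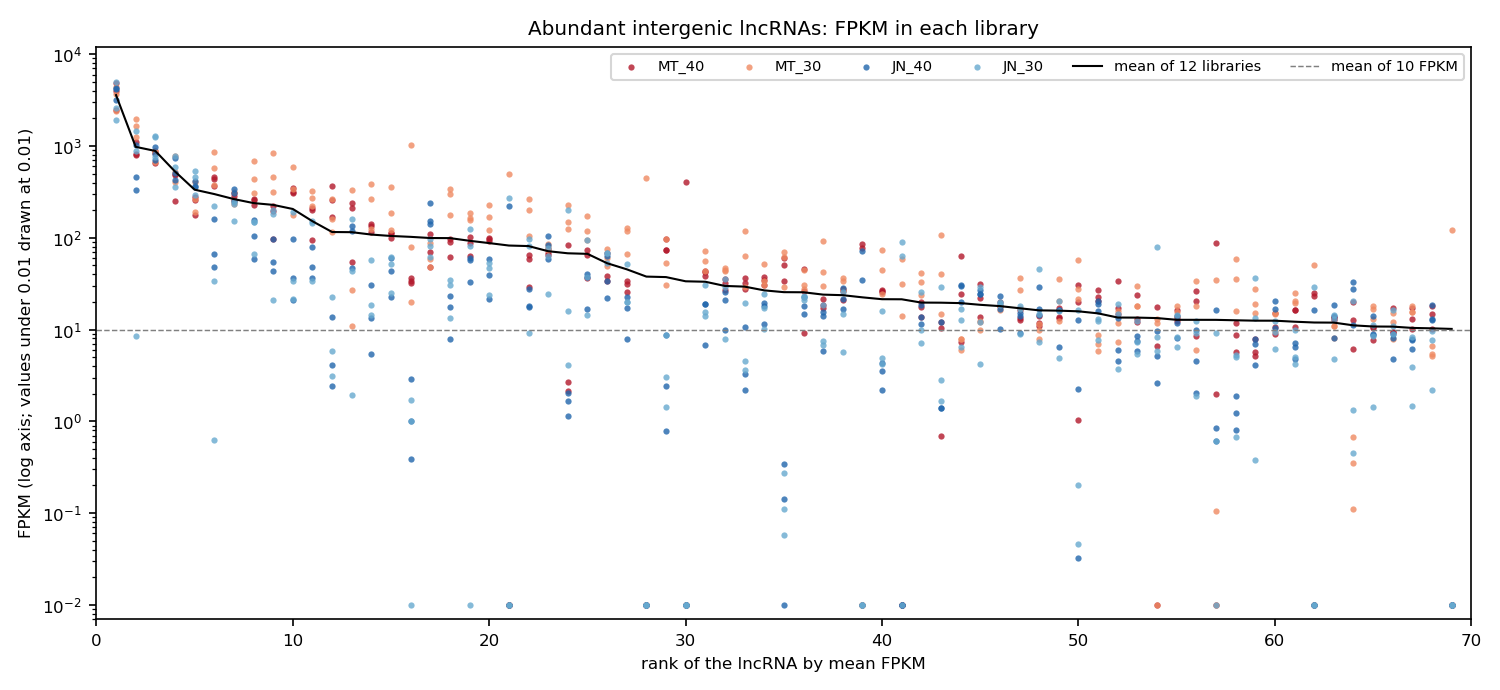
FPKM of the 69 transcripts in each of 12 libraries (points, coloured by group, log axis), ordered by rank of the mean (black line), with the limit of 10 FPKM dashed and values under 0.01 drawn at 0.01. The mean falls from 3588 FPKM to just above 10, and MT_30 points are at the top for 44 transcripts.

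At the limit of the selection, the 3 transcripts just inside had means of 10.4 (MSTRG.18048.1), 10.3 (MSTRG.32622.1) and 10.2 FPKM (MSTRG.10112.11). The 3 intergenic transcripts just outside had 9.78 (MSTRG.32625.1), 9.32 (MSTRG.19864.1) and 9.31 FPKM (MSTRG.45759.1). Those just outside ranged over 3.44 to 15.2, 4.33 to 14.3 and 1.63 to 19.2 FPKM between libraries, so that the limit passes through transcripts of like level.

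Most of the 69 transcripts were present throughout. An FPKM above 0 was listed in all 12 libraries for 57 of them, and 12 were at 0 in at least 1 library. The level was at or above 10 FPKM in all 12 libraries for 17 transcripts, and the group mean was at or above 10 in each of the 4 groups for 35. By group, 60 reached a mean of 10 in MT_40 and 61 in MT_30, against 45 in JN_40 and 47 in JN_30. The highest group mean was that of MT_40 for 10 transcripts and of MT_30 for 42, against 9 for JN_40 and 8 for JN_30. Another 12 transcripts reached a mean of 10 in both groups of MT72 and in neither group of JN18, among them MSTRG.16468.1, MSTRG.49939.1, MSTRG.50137.1 and MSTRG.40968.1, whose values follow below. Such transcripts entered the selection through MT72 alone, and their difference between the lines is in part fixed by that. The same holds for 3 transcripts that reached 10 in MT_30 alone, MSTRG.15069.1 among them, and for 1 in MT_40 alone. In the comparison of the ages it holds for 3 transcripts that reached 10 only in the groups at 40 d (MSTRG.4311.1 and MSTRG.32622.1 among them) and for 3 only in those at 30 d (MSTRG.6671.1 among them).

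A few transcripts passed through a single library. For 6 of the 69, 1 library held more than 50% of the sum over 12. MSTRG.43420.1 (chromosome 6, 23308819 to 23309267, no strand, 1 exon, 449 bases) was listed at 453 FPKM in MT_9, about 15197 estimated reads, and at 0 in the other 11 libraries. MSTRG.10112.7 was listed at 403 FPKM in MT_6 alone and MSTRG.10112.11 at 122 in MT_8 alone. These 3 had the highest coefficient of variation, 346% each, which is what a value in 1 of 12 libraries gives. They did not pass the filter of more than 0.1 FPKM in at least 3 libraries, so that the comparisons below cover 66 of the 69 transcripts and 9142 of the 11072 in the table.

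At the other end, 6 transcripts had a coefficient of variation under 30% over the 12 libraries, against a median of 70.8% over the 69. The steadiest was MSTRG.32293.1 (chromosome 20, 32900421 to 32901340, no strand, 1 exon, 920 bases). Its FPKM was 19.7, 17.9 and 18.1 in MT_40 and 16.4, 17.9 and 18.01 in MT_30, against 10.2, 23.2 and 16.95 in JN_40 and 19.8, 19.3 and 18.7 in JN_30, a coefficient of variation of 16.6%. JN_4 and JN_5 were its lowest and highest libraries, and the 4 groups overlapped. MSTRG.44031.1 followed at 19.2% and MSTRG.11696.1 at 23.3%. Another 22 transcripts varied by more than 100%.

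The abundant transcripts were longer than the other intergenic lncRNAs of chromosomes 1 to 20, and more of them carried a strand. Their median length was 539 bases (211 to 5185), against 317 bases for the other 4233, and 24.6% of them were longer than 1 kb, against 12.5%. A single exon was assembled for 56 of the 69 (81.2%), against 84.9% of the others. The remaining 13 had 2 exons and none had more, so that these 13 share the highest exon number. Of these, MSTRG.3238.1 (chromosome 10, 17217445 to 17221768, plus strand, 2 exons, 357 bases) had 27.1, 32.4 and 35.5 FPKM in MT_40 and 44.1, 43.2 and 46.5 in MT_30, against 10.02, 25.5 and 21.2 in JN_40 and 29.2, 35.7 and 7.97 in JN_30, so that MT_30 lay above all other libraries. A strand was assigned to 36 of the 69 (52.2%), 14 on the plus and 22 on the minus strand, against 22.7% of the others. Among single-exon transcripts alone, whose strand cannot come from a splice junction, 41.1% of the abundant and 8.96% of the other transcripts had a strand. These shares are descriptions without a test, and the part that the number of reads per transcript has in them was not tested.

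The coding potential scores hardly separated the sets. Both sets hold only transcripts that the authors had kept as without coding potential, which limits how far the scores can differ. The median CPC score was 0.0222 in the abundant and 0.0198 in the other intergenic transcripts, and the median CNCI score was -0.0287 and -0.0164 in the same order. The longest transcripts were MSTRG.29206.1 (chromosome 2, 7053853 to 7059037, plus strand, 1 exon, 5185 bases) at a mean of 52.9 FPKM, MSTRG.10504.1 (chromosome 13, 16625529 to 16629821, minus strand, 1 exon, 4293 bases) at 26.7 FPKM and MSTRG.22303.1 (chromosome 17, 23567945 to 23571917, no strand, 1 exon, 3973 bases) at 10.8 FPKM. The shortest were MSTRG.43234.1 (chromosome 6, 17343173 to 17343383, no strand, 1 exon, 211 bases) at 66.9 FPKM, MSTRG.34516.1 (chromosome 3, 18809626 to 18809842, no strand, 1 exon, 217 bases) at 33.2 FPKM and MSTRG.50138.2 at 15.8 FPKM. Neither end of the length range stood at the top of the levels.

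The transcripts lay on 19 of the 20 chromosomes, with none on chromosome 4. Chromosomes 13 and 15 held 9 each, chromosome 10 held 7 and chromosome 3 held 6. They belonged to 63 assembled loci, since 3 loci gave more than 1 abundant transcript. Most lay far from the lncRNAs of the table that carry the name of an annotated gene, at a median distance of 59.0 kb. However, 10 of the 69 lay inside the span of a long sense transcript (class code o, one that shares exonic sequence with a gene). MSTRG.17790.1 lay inside MSTRG.17780.1 of LOC100814403, a transcript of 2 exons and 228 bases on the plus strand that spans 229709 bases and ends at the same base, 40606100, as MSTRG.17790.1. MSTRG.17780.1 itself averaged only 0.0600 FPKM. MSTRG.35024.1 and MSTRG.35056.1 both lay inside MSTRG.35023.1 of LOC548016, which spans 547689 bases with 3 exons, starts at the same base as MSTRG.35024.1 (33889641) and averaged 67.9 FPKM. In both cases the 2 transcripts are annotated on opposite strands, and since the sources used here do not state whether strand was used in the counting, the levels at the shared end are uncertain.

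The locus MSTRG.11696 gave 3 abundant transcripts with the same ends and length (chromosome 13, 29966106 to 29968425, minus strand, 2 exons, 306 bases), which the table does not tell apart by position. Their summed FPKM averaged 1747 and ranged from 1073 in MT_6 to 2561 in JN_7. MSTRG.11696.1 had 839, 889 and 646 FPKM in MT_40 and 663, 870.5 and 881 in MT_30, against 711, 975 and 826 in JN_40 and 1249, 761 and 1296 in JN_30. The groups overlapped, and the 3 transcripts kept the same order of level in all 12 libraries. How reads were divided among 3 near-identical isoforms is set by the assembler, and the sum is the firmer value.

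The locus MSTRG.10112 (chromosome 13, 7358192 to 7359627, minus strand) gave 11 transcripts in the table, 4 of them abundant. MSTRG.10112.1 (1 exon, 1436 bases) had 54.8, 239.5 and 212 FPKM in MT_40 and 10.9, 331 and 26.8 in MT_30, against 47.5, 119 and 136 in JN_40 and 159, 1.95 and 43.6 in JN_30. MSTRG.10112.2 (2 exons, 441 bases) was listed at 497 FPKM in MT_7, 222 in JN_4 and 269 in JN_8, and at 0 in the other 9 libraries. In MT_7 and JN_8, MSTRG.10112.1 had its second lowest and lowest value. Over the 12 libraries their log2(FPKM + 0.1) values had a Pearson correlation of -0.74, a description of points that share an assembly and a locus. Summed over all 11 transcripts the locus averaged 266 FPKM, from 43.6 in JN_9 to 627 in MT_6, and no library was at 0. The single-library values of MSTRG.10112.7 and MSTRG.10112.11 belong to this locus too, and the values of its isoforms are uncertain for the same reason.

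**Figure D2:**
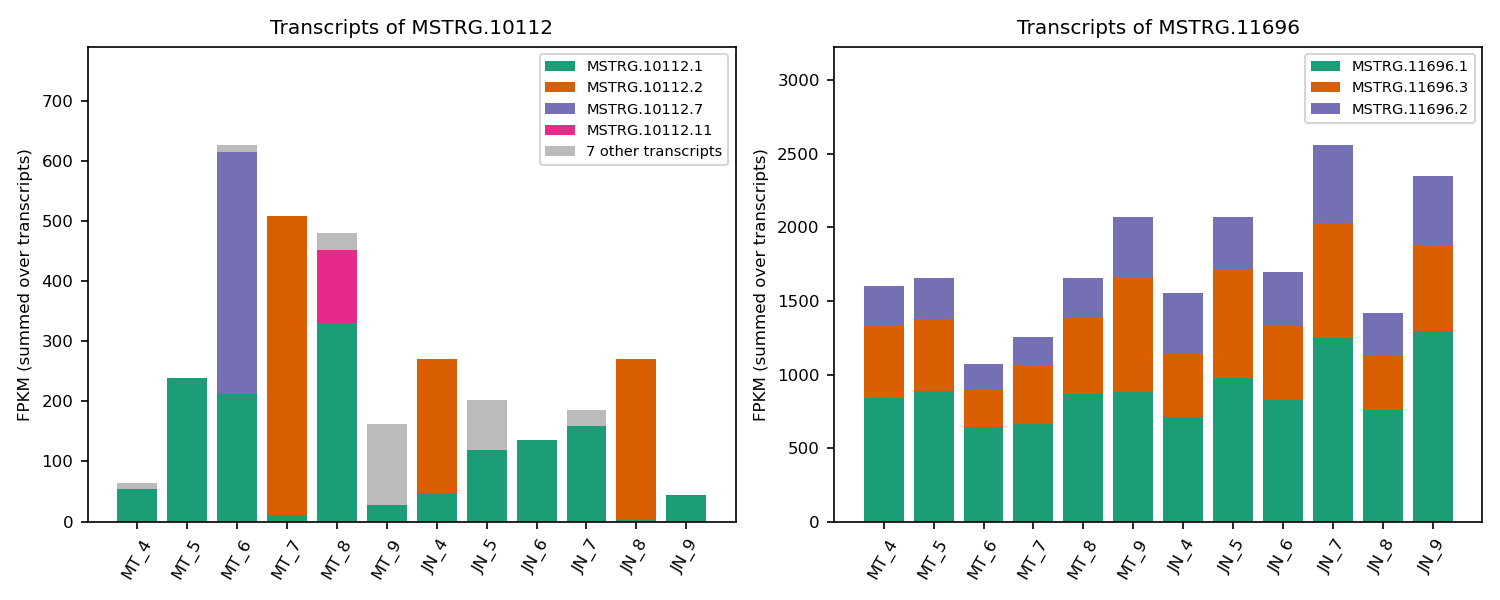
Stacked bars of FPKM per library for the transcripts of MSTRG.10112 (left, 4 abundant transcripts in colour and 7 others in grey) and of MSTRG.11696 (right, 3 transcripts), with MT72 libraries left of JN18 libraries. At MSTRG.10112 different transcripts carry the level in different libraries, while at MSTRG.11696 the 3 transcripts take like shares throughout.

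Apart from these loci, 2 groups of abundant transcripts lay within 10 kb of each other. On chromosome 8, MSTRG.50137.1 (43792773 to 43793606) lay 2975 bases from MSTRG.50138.1 (43796581 to 43801758) and 3163 bases from MSTRG.50138.2 (43796769 to 43801757), all on the minus strand and all inside the span of MSTRG.50125.1 of LOC100800515. Their FPKM correlated over the 12 libraries (Pearson on the log2 scale) at 0.55 and 0.79. MSTRG.50138.2 had 1.04, 19.98 and 30.2 FPKM in MT_40 and 21.3, 27.6 and 57.7 in MT_30, against 2.26, 0.0322 and 12.8 in JN_40 and 0.0466, 0.202 and 16.4 in JN_30, so that both lines had low and high libraries. On chromosome 15, MSTRG.18047.1 (chromosome 15, 47403985 to 47406059, plus strand, 2 exons, 1208 bases) and MSTRG.18048.1 (chromosome 15, 47406485 to 47408942, no strand, 1 exon, 2458 bases) were 426 bases apart. MSTRG.18048.1 had 13.1, 10.1 and 17.05 FPKM in MT_40 and 15.7, 18.2 and 15.4 in MT_30, against 7.81, 7.77 and 6.18 in JN_40 and 1.46, 8.34 and 3.96 in JN_30, and all 6 libraries of MT72 were above all 6 of JN18. Whether such neighbours are pieces of 1 longer transcript was not tested. The counts given here take each transcript separately, so that neighbours and isoforms of 1 locus enter them as single transcripts without being independent of each other.

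The question of the comparison of the lines was which lncRNAs differ between the low-linolenic acid mutant and the wild type. At 30 d many of the abundant transcripts were higher in MT_30 than in JN_30. At an adjusted p of at most 0.05 (limma on log2(FPKM + 0.1), Benjamini-Hochberg over 9142 lncRNAs), 10 of the 66 rose and none fell, against 0.733% of all lncRNAs tested that rose and 0.153% that fell. With looser thresholds, a log2 fold change beyond 1 in either direction at an unadjusted p up to 0.05, 32 rose and 1 fell, against 7.25% and 4.73% of all lncRNAs tested. Of those called at the adjusted p, MSTRG.16468.1, MSTRG.49939.1, MSTRG.50137.1, MSTRG.40968.1, MSTRG.8651.1 and MSTRG.15069.1 reached a mean of 10 FPKM only in groups of MT72. Part of the excess over all lncRNAs, in these counts and in the median below, is therefore fixed by the selection. The median log2 fold change was 1.36 over the 66 transcripts and -0.03 over all tested, and 52 were higher and 13 lower in MT_30. The size of this shift depended on the kind of scaling and on 1 library. With FPKM rescaled by a factor per library the median was 1.41, with 55 higher and 11 lower, and 11 rose at the adjusted p. After quantile normalization, which forces all libraries to the same distribution, the median was 0.51, with 45 higher and 21 lower, 2 rose at the adjusted p and the looser thresholds gave 14 higher and 6 lower. Without JN_9 the median was 0.81 and 11 rose at the adjusted p, and without MT_9 the median was 1.47 and 3 rose. Without MT_8, 4 rose. The calls over all lncRNAs numbered 81 with all libraries, 67 without JN_9, 32 without MT_9 and 33 without MT_8.

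At 40 d the same direction held with smaller counts. At the adjusted p, 4 of the 66 were higher in MT_40 than in JN_40 and none was lower, against 0.109% and 0.0438% of all lncRNAs tested. With the looser thresholds 21 were higher and 1 was lower, against 3.4% and 2.45%. The median log2 fold change was 0.73, against -0.01 over all tested, with 49 higher and 16 lower. With FPKM rescaled by a factor per library it was 0.67, with 47 higher and 18 lower. After quantile normalization the median was 0.05, with 34 higher and 31 lower, and the looser thresholds gave 10 higher and 4 lower, and 4 were higher at the adjusted p. Without JN_4 the median was 0.42, with 2 higher at the adjusted p and 14 past the looser thresholds in either direction. Leaving out MT_4, MT_5, MT_6 or JN_5 also gave 2 at the adjusted p, and leaving out JN_9 gave 7. Over all lncRNAs there were 14 calls with all libraries, 8 to 10 without any 1 of JN_4, MT_4, MT_5, MT_6 and JN_5, and 28 without JN_9. Higher in MT72 at both ages were 44 of the 66 (66.7%), against 26.7% of all tested, and lower at both were 9 (13.6%), against 29.6%. The 2 ages have no library in common, but the selection used the libraries of both. For the 12 transcripts that reached a mean of 10 in both groups of MT72 and in neither of JN18, this direction is in part fixed by the selection. The same holds for MSTRG.15069.1, which reached it in MT_30 alone. The counts above are in part fixed as well.

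The direction was also seen without any fitted value. For 17 of the 66 transcripts all 6 libraries of MT72 were above all 6 of JN18, and for none were all 6 below, against 0.864% and 0.481% of all lncRNAs tested. Among these 17, MSTRG.49939.1, MSTRG.50137.1, MSTRG.272.1, MSTRG.16468.1, MSTRG.40968.1, MSTRG.8651.1, MSTRG.18048.1 and MSTRG.15069.1 reached a mean of 10 FPKM only in groups of MT72. The separation uses the same values as the selection, so that part of this share is fixed by it. Among the 35 transcripts that reached a mean of 10 FPKM in all 4 groups, which did not enter through 1 line, 8 showed such a separation. In this subset the median log2 fold change was 1.30 at 30 d, with 28 higher and 7 lower, and 0.73 at 40 d, with 27 higher and 8 lower. At the adjusted p, 3 of the 35 rose at 30 d and none at 40 d, where 10 were higher and 1 lower at the looser thresholds.

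**Figure D3:**
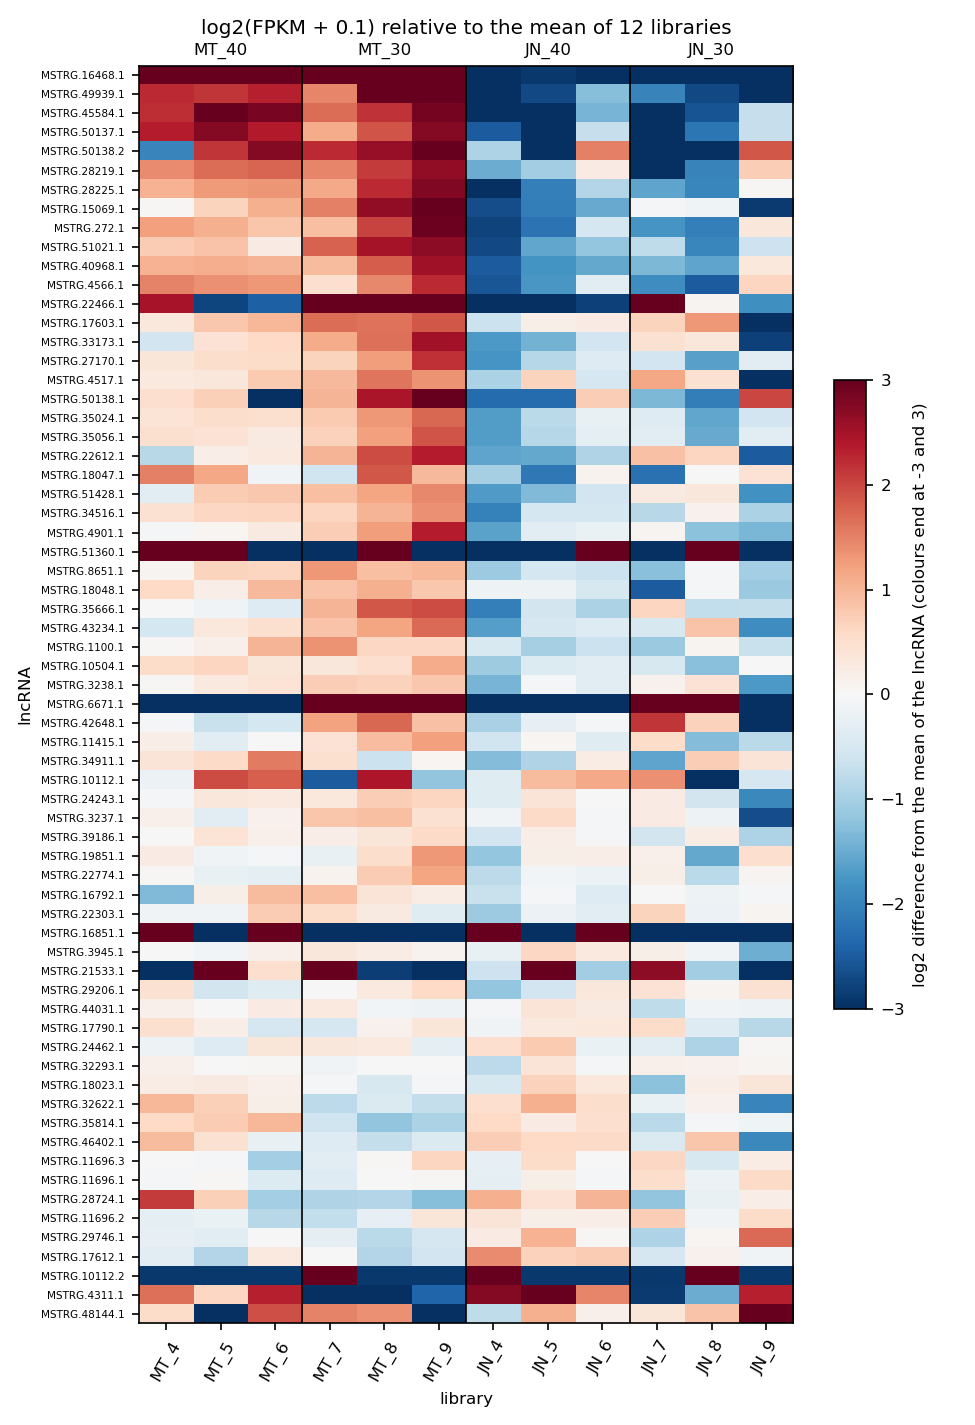
log2(FPKM + 0.1) of the 66 tested transcripts (rows, ordered by the mean log2 fold change of MT72 over JN18) in 12 libraries (columns), each relative to the mean of the transcript over the libraries, with colours ending at -3 and 3. The upper rows are red in MT_40 and MT_30 and blue in JN_40 and JN_30, most deeply red in MT_9, and the lower rows show little pattern by line.

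The clearest difference was that of MSTRG.16468.1 (chromosome 15, 6430810 to 6431325, no strand, 1 exon, 516 bases). It had 33.5, 59.97 and 51.04 FPKM in MT_40 and 29.3, 61.6 and 70.3 in MT_30, against 0.142, 0.343 and 0 in JN_40 and 0.112, 0.0579 and 0.272 in JN_30. The transcript was thus present in all 6 libraries of MT72 and nearly absent from all 6 of JN18. The log2 fold change was 7.76 (SE 0.53) at 30 d (limma, adjusted p = 1.34e-05) and 7.73 (SE 0.53) at 40 d (adjusted p = 1.41e-05). Since the level in JN18 lies at the pseudocount of 0.1, the size depends on it and ranged over 5.49 to 8.57 at 30 d and 5.37 to 9.17 at 40 d in the 22 alternatives tried, all of which kept both calls. The groups of MT72 averaged 48.2 ± 13.5 and 53.8 ± 21.6 FPKM (MT_40 and MT_30), and those of JN18 0.162 ± 0.172 and 0.147 ± 0.111 FPKM (JN_40 and JN_30, SD, n = 3 each).

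MSTRG.45584.1 (chromosome 7, 14342193 to 14342850, no strand, 1 exon, 658 bases) was higher in MT72 at both ages as well. Its mean was 222.6 FPKM over the libraries of MT72 and 8.59 over those of JN18, under the limit of 10. Part of its difference is therefore fixed by the selection. It had 169, 365 and 261 FPKM in MT_40 and 115, 162 and 264 in MT_30, against 2.41, 4.07 and 13.6 in JN_40 and 3.14, 5.89 and 22.5 in JN_30. The lines did not overlap. This gave a log2 fold change of 4.49 (SE 0.71) at 30 d (limma, adjusted p = 0.00792) and 5.59 (SE 0.71) at 40 d (adjusted p = 0.00559). The call at 30 d was lost without MT_9 (adjusted p = 0.0560), after quantile normalization (0.0618) and with only the compared groups in the fit (0.108), and the last of these also lost the call at 40 d (0.0829).

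MSTRG.50137.1 (chromosome 8, 43792773 to 43793606, minus strand, 1 exon, 834 bases) was the third transcript that passed at both ages. It had 73.1, 95.9 and 74.2 FPKM in MT_40 and 30.9, 52.6 and 95.9 in MT_30, against 2.41, 0.789 and 8.77 in JN_40 and 1.42, 3.07 and 8.72 in JN_30. All libraries of MT72 lay above 30 FPKM and all of JN18 under 10. Its log2 fold change came to 3.95 (SE 0.75) at 30 d (limma, adjusted p = 0.0269) and 4.90 (SE 0.75) at 40 d (adjusted p = 0.0198). Both calls were close to the limit. They were lost in 9 of 22 alternatives at 30 d and in 7 at 40 d, with adjusted p-values of up to 0.139 and 0.160, among them the fits without MT_8, MT_9, JN_7 or JN_8 at 30 d and without any 1 of MT_4, MT_5, MT_6, JN_4 and JN_5 at 40 d.

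MSTRG.40968.1 (chromosome 5, 39714673 to 39717955, minus strand, 1 exon, 3283 bases) had 26.1, 27.1 and 25.7 FPKM in MT_40 and 24.5, 44.9 and 73.9 in MT_30, against 2.18, 3.57 and 4.28 in JN_40 and 4.94, 4.18 and 15.8 in JN_30. The lines did not overlap, and the 3 values of MT_40 were nearly equal. Its log2 fold change was 2.63 (SE 0.50) at 30 d (limma, adjusted p = 0.0265) and 2.99 (SE 0.50) at 40 d (adjusted p = 0.0354). At 30 d the call was lost in 7 of 22 alternatives, among them those without MT_8, MT_9 or JN_8, with adjusted p-values of up to 0.240. At 40 d the call was kept in 9 of 22 alternatives only, and among single libraries it was lost without MT_4, MT_5, MT_6, MT_8, JN_4, JN_5, JN_6 or JN_7, with adjusted p-values of up to 0.179.

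Another 6 transcripts passed the adjusted p at 30 d alone. At 40 d all 6 were also higher in MT72 at the looser thresholds, with log2 fold changes of 1.23 to 4.86. None of them passed the test of a different stage effect below, which does not show that the lines differed alike at both ages. MSTRG.49939.1 (chromosome 8, 42028802 to 42031565, minus strand, 2 exons, 557 bases) had 19.8, 1019.7 and 79.9 FPKM in MT_30, against 1.71, 1.02 and 0 in JN_30. Library MT_8 held 83.0% of its sum over all libraries, and the groups did not overlap. The log2 fold change was 7.65 (SE 1.25) (limma, adjusted p = 0.0105), and at 40 d it was 4.86 (SE 1.25) (adjusted p = 0.319), with 34.1, 31.8 and 36.6 FPKM in MT_40 against 0.3904, 1.01 and 2.89 in JN_40. Without MT_8 the call at 30 d was kept (log2 fold change 6.09, adjusted p = 0.0376). It was lost in 4 of 22 alternatives, none of which left out a library, with adjusted p-values of up to 0.197.

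MSTRG.15069.1 (chromosome 14, 35032911 to 35033366, no strand, 1 exon, 456 bases) had 15.98, 35.4 and 58.7 FPKM in MT_30, against 5.34, 5.08 and 0.674 in JN_30. A log2 fold change of 3.53 (SE 0.68) resulted (limma, adjusted p = 0.0279), and the groups did not overlap. The call was lost in 8 of 22 alternatives, among them without MT_8 (adjusted p = 0.129), without MT_9 (0.138) and with only the compared groups in the fit (0.254, the highest). Since the transcript reached a mean of 10 FPKM in MT_30 alone, part of this difference is fixed by the selection. MSTRG.51021.1 (chromosome 9, 3945537 to 3946523, no strand, 1 exon, 987 bases) had 179, 299 and 337 FPKM in MT_30, against 30.8, 13.4 and 34.4 in JN_30. These groups lay far apart, with a log2 fold change of 3.43 (SE 0.48) (limma, adjusted p = 0.00399), and no library left out changed the call, which was lost after quantile normalization (log2 fold change 2.13, adjusted p = 0.0574) and with only the compared groups in the fit (0.0923). The other 3 at 30 d alone were MSTRG.28225.1, MSTRG.35024.1 and MSTRG.8651.1, named after their values were seen, with log2 fold changes of 3.22, 2.10 and 1.84. MSTRG.8651.1 reached a mean of 10 FPKM only in the groups of MT72, so that part of its difference is fixed by the selection. The call of MSTRG.28225.1 was lost in 13 of 22 alternatives, among them the omission of any 1 of MT_4, MT_5, MT_6, MT_8, MT_9, JN_5, JN_7 and JN_8. That of MSTRG.35024.1 was lost in 17 of 22, and of the single omissions only those of JN_4 and JN_7 kept it. That of MSTRG.8651.1 was lost in 7 of 22, among them those without MT_7, MT_8, MT_9 or JN_9. After quantile normalization the log2 fold changes of MSTRG.28225.1 and MSTRG.35024.1 were 1.81 and 0.61.

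**Figure D4:**
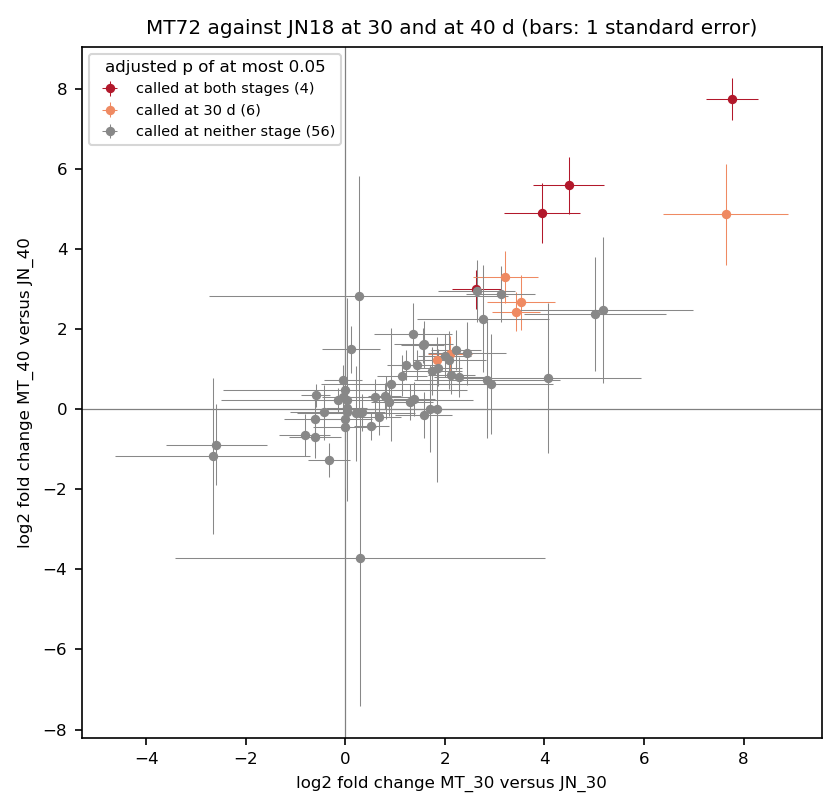
log2 fold change of MT_30 versus JN_30 (horizontal) and of MT_40 versus JN_40 (vertical) of the 66 tested transcripts, with bars of 1 standard error. Most points lie in the upper right part, and MSTRG.16468.1 stands at the top right with 7.76 and 7.73.

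Few transcripts were lower in MT72. None passed the adjusted p at either age (limma), and 1 at each age passed the looser thresholds. At 40 d this was MSTRG.17612.1 (chromosome 15, 29949268 to 29950358, plus strand, 1 exon, 1091 bases), named after its values were seen. It had 70.03, 47.7 and 109 FPKM in MT_40, against 238, 143 and 151 in JN_40, without overlap. The log2 fold change was -1.27 (SE 0.43) (unadjusted p = 0.0104 and adjusted p = 0.5796 in limma), and -2.11 after quantile normalization. At 30 d it was MSTRG.4311.1, described next, at -2.59 (SE 1.01) (unadjusted p = 0.0235 and adjusted p = 0.276 in limma). This value rested on JN_9, without which it was -1.09 (adjusted p = 0.596).

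The comparison of the ages asked which lncRNAs change while the seeds fill. In MT72, 2 of the 66 rose and 1 fell in MT_40 relative to MT_30 at the adjusted p, against 1.59% and 0.919% of all lncRNAs tested. With the looser thresholds 5 (7.58%) were higher and 8 (12.1%) lower, against 6.81% and 7.37% of all lncRNAs tested. The share that was higher is near that among all lncRNAs, and whether the shares differ was not tested. The median log2 fold change was -0.45, against -0.10 over all tested, with 20 higher and 46 lower, and after quantile normalization it was -0.14, with 28 higher and 38 lower. The count of 3 calls rested on single libraries, with 1 left without MT_7, 0 without MT_8, 1 without MT_9, 5 without JN_7 and 8 without JN_9. The calls over all lncRNAs moved in the same direction, from 229 with all libraries to 100 without MT_7, 75 without MT_8, 76 without MT_9, 341 without JN_7 and 472 without JN_9. The looser thresholds gave 8 without MT_4 and 8 without MT_9 in place of 13. In JN18 no transcript passed the adjusted p (limma; 0.164% of all tested rose and 0.0328% fell), 9 had an unadjusted p under 0.05, and 5 were higher and 3 lower at the looser thresholds, against 5.49% and 5.14%. The median log2 fold change in JN18 was -0.08 in the 66 and in all tested, and 0.19 without JN_4. Without JN_9, 2 transcripts of JN18 passed the adjusted p and 13 the looser thresholds, and without JN_4 the looser thresholds gave 4. Higher at 40 d in both lines were 13 of the 66 (19.7%), against 25.3% of all tested, and lower in both were 31 (47.0%), against 34.8%.

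MSTRG.35814.1 (chromosome 3, 41838386 to 41839603, no strand, 1 exon, 1218 bases) rose with age in MT72. It had 20.5, 22.8 and 27.04 FPKM in MT_40, against 8.83, 5.82 and 6.91 in MT_30, and 20.2, 16.02 and 18.96 in JN_40, against 7.63, 13.2 and 12.3 in JN_30. All 6 libraries at 40 d were above all 6 at 30 d, which held for 2 of the 66 transcripts, against 1.42% of all lncRNAs tested, and the opposite held for none, against 0.831%. The other was MSTRG.32622.1, with 10.1 to 18.6 FPKM at 40 d and 2.18 to 9.71 at 30 d. The log2 fold change of MSTRG.35814.1 was 1.70 (SE 0.29) in MT72 (limma, adjusted p = 0.00917) and 0.76 (SE 0.29) in JN18 (adjusted p = 0.315). Without MT_8 its adjusted p in MT72 was 0.0564.

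MSTRG.4311.1 (chromosome 10, 43744949 to 43745735, plus strand, 2 exons, 638 bases) was the other that rose in MT72. It had 12.6, 6.07 and 20.1 FPKM in MT_40, against 0.351, 0.111 and 0.669 in MT_30, and 27.4, 32.96 and 11.1 in JN_40, against 0.449, 1.34 and 20.2 in JN_30. In JN18 the libraries JN_7 and JN_8 were low, while JN_9, labelled 30 d, was at the level of the 40 d libraries. Its log2 fold change was 4.80 (SE 1.01) in MT72 (limma, adjusted p = 0.0252) and 3.10 (SE 1.01) in JN18 (adjusted p = 0.254). Without JN_9 it was 4.61 in JN18, with an adjusted p of 0.0177 in limma. In MT72 the call was lost on leaving out any 1 of its 6 libraries, with adjusted p-values of 0.0549 to 0.125. Since the transcript reached a mean of 10 only in the groups at 40 d, part of its rise is fixed by the selection.

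MSTRG.6671.1 (chromosome 11, 12662404 to 12663195, minus strand, 1 exon, 792 bases) was the transcript that fell in MT72. It was listed at 0 in all 3 libraries of MT_40, against 58.8, 31.4 and 14.2 FPKM in MT_30. In JN18 it was also listed at 0 in all 3 libraries of JN_40, against 89.1, 63.1 and 0 FPKM in JN_30. Here too JN_9 was at the level of the 40 d libraries and not of JN_7 and JN_8. The adjusted p was 0.0309 in MT72 and 0.1903 in JN18 (limma), and without JN_9 it was 7.93e-07 in JN18. The 40 d groups, at 0 throughout, add no scatter to the pooled variance behind these values. No fold is given against groups listed at 0. In MT72 the call was lost on leaving out any 1 of its 6 libraries, with adjusted p-values of 0.0821 to 0.118, and with voom on estimated reads (0.338). Since the transcript reached a mean of 10 only in the groups at 30 d, part of its fall is fixed by the selection. The nearest transcript with the name of a gene was an antisense lncRNA of PRP3, a proline-rich protein gene, 17845 bases away.

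**Figure D5:**
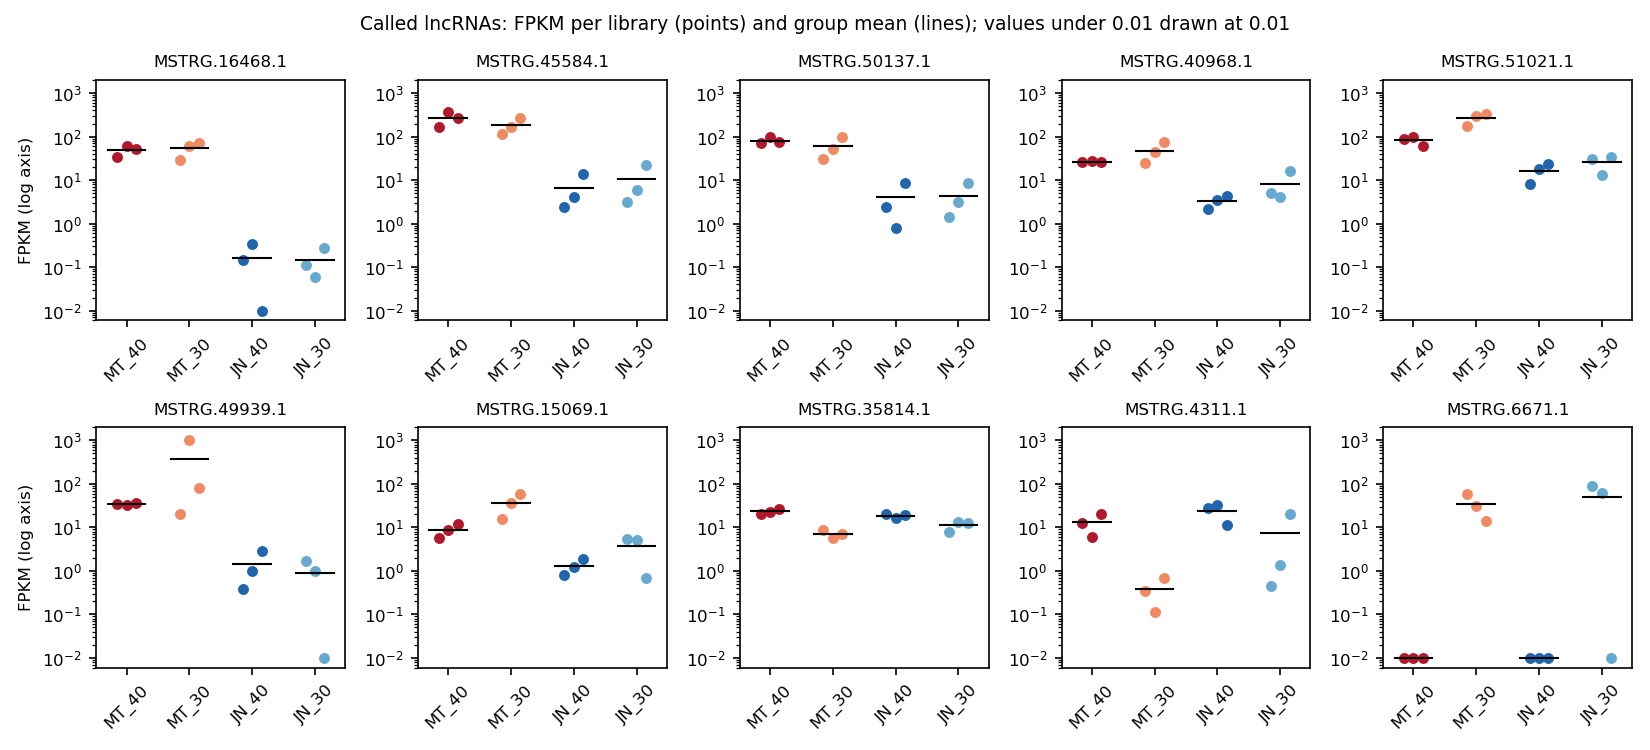
FPKM per library (points) and group mean (lines) on a log axis for 10 transcripts that passed the adjusted p in 1 or more comparisons, with MT_40 and MT_30 left of JN_40 and JN_30 and values under 0.01 drawn at 0.01. The first 7 panels show MT72 above JN18, and the last 3 show the transcripts that changed with age in MT72, with 1 JN_30 library (JN_9) at the 40 d level for MSTRG.4311.1 and MSTRG.6671.1.

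The test of a different stage effect in MT72 and in JN18 found none of the 66 at the adjusted p (limma), against 0.0766% of all lncRNAs tested, and none at the looser thresholds, against 6.66%. A single transcript, MSTRG.35814.1, had an unadjusted p under 0.05 (0.0406, difference of log2 fold changes 0.94 (SE 0.41), adjusted p = 0.726). In the other direction MSTRG.3237.1 (chromosome 10, 17199643 to 17200254, no strand, 1 exon, 612 bases) had the smallest p, with a difference of -1.72 (SE 0.81) and an adjusted p of 0.743 in limma. It had 10.6, 7.65 and 10.4 FPKM in MT_40, against 16.8, 17.9 and 12.97 in MT_30, and 8.83, 14.2 and 9.04 in JN_40, against 11.3, 8.501 and 1.42 in JN_30. Its low JN_9 value lies outside the range of the other 11 libraries, and without JN_9 the difference was -0.82 (adjusted p = 0.712). The absence of calls does not show that the lines change alike.

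The 69 transcripts were selected on a high mean, so that their large share of all lncRNA signal is in part fixed by the selection. Their summed FPKM was 9030 to 10597 in MT_40 and 9431 to 16162 in MT_30, against 6641 to 9093 in JN_40 and 6131 to 11172 in JN_30. This was 29.7% to 31.3% of the FPKM of all 11072 lncRNAs in MT_40 and 35.9% to 42.6% in MT_30, against 28.0% to 32.5% in JN_40 and 26.3% to 33.0% in JN_30. The 3 libraries of MT_30 thus lay above all others in that share. The selection took in 3 transcripts that reached a mean of 10 in MT_30 alone, and MT_30 was the highest group for 42 of the 69. Part of this difference is therefore fixed by the selection as well. The median FPKM of the 69 was 26.5 to 27.6 in MT_40 and 29.3 to 57.7 in MT_30, against 10.0 to 17.9 in JN_40 and 13.4 to 16.0 in JN_30, without overlap between the lines. A level of at least 10 FPKM was reached by 55 to 58 of the 69 in a library of MT_40 and 55 to 59 in MT_30, against 35 to 49 in JN_40 and 38 to 41 in JN_30. The median and this number use the same values as the selection. In it, 12 transcripts reached a mean of 10 in both groups of MT72 and in neither of JN18, 3 in MT_30 alone and 1 in MT_40 alone. Part of the separation of the lines in them is therefore fixed by the selection. FPKM are shares of a library, so that a rise of some transcripts lowers all others, and absolute amounts per pod were not measured.

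The difference between the lines was set beside that of the nearest other sets of lncRNAs. The table held 46 lncRNAs of other classes or outside chromosomes 1 to 20 at a mean of 10 FPKM or more, 45 of which were tested. Their median log2 fold change was 0.46 at 30 d and 0.29 at 40 d, with 8 higher and 2 lower at the looser thresholds at 30 d and 9 and 1 at 40 d, and after quantile normalization the medians were -0.10 and -0.25. All 6 libraries of MT72 lay above all 6 of JN18 for 5 of the 45 and below for 1. Intergenic lncRNAs with a mean of 1 to 10 FPKM numbered 510, of which 503 were tested. Their medians were 0.31 at 30 d and 0.19 at 40 d, with 95 higher and 35 lower at 30 d and 55 and 5 at 40 d, and 0.33 and 0.15 after quantile normalization, with 28 of the 503 separated above and 5 below. The medians of the 66 were the largest of the 3 sets on the FPKM scale, while after quantile normalization the set of 1 to 10 FPKM had the larger median at 40 d. Whether the sets differ was not tested.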

How the data were processed

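Total RNA of 12 young pod samples was depleted of ribosomal RNA and sequenced as paired reads of 150 bases. The FPKM values, as deposited by the authors, were made with StringTie from reads trimmed with Cutadapt and mapped to 2 soybean genomes (by HISAT2 according to the methods and TopHat2 according to the submitters' processing notes, without versions). The coverage deposited by the authors is the mean number of reads over each base. The CPC and CNCI score of each assembled transcript was computed by the authors, who kept transcripts longer than 200 bases without coding potential. Exon number and length are as deposited.

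The 69 transcripts and all lists were chosen with earlier results of these data known. Aligned bases are the median ratio of coverage to FPKM per library, and estimated reads are coverage times length over 150. Groups were compared in R 4.3.3 by limma 3.58.1, fitted to log2(FPKM + 0.1) of the 9142 lncRNAs above 0.1 FPKM in at least 3 libraries, all 12 libraries in 1 fit of 4 groups with a variance trend, and Benjamini-Hochberg adjustment over all 9142. FPKM are not counts, so no count model was used for the main results, and voom on estimated reads served only as an alternative. Fold changes are on the log2(FPKM + 0.1) scale, which understates the change of low transcripts. A p-value sets a difference between groups against the scatter of the biological replicates. This scatter is pooled over the 4 groups and moderated by the variance trend. The fit was tested on simulated data. Files were handled with Python 3.11.15, numpy 2.4.6, pandas 2.3.3 and scipy 1.17.1, and drawn with matplotlib 3.10.9.

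The text names the 10 transcripts with the highest mean, those called at the adjusted p (at most 6 per direction and comparison, or else the 1 per direction with the smallest p), the 3 on either side of the limit of 10 FPKM, the 3 with the lowest and the highest coefficient of variation, those that share a locus or lie within 10 kb, and the 3 longest, 3 shortest and those with most exons. Alternatives were pseudocounts of 0.01 and 1, no filter and a stricter filter, rescaled FPKM, quantile normalization, a fit of the compared groups, weights per library, a replicate block, voom on estimated reads, other limits for the selection and the omission of each library. Sequences, miRNAs and mRNAs were not analysed here.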

Additional observations from a re-analysis of the deposited data

How the results depend on the processing

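None of the 25 log2 fold changes that were followed over the alternatives, 8 of them added after seeing the data, reversed its sign, and both calls of MSTRG.16468.1 held in all 22. Without the filter on low values, the transcripts called at the adjusted p (limma) numbered 4 between the lines at 30 d, 2 between the lines at 40 d and 1 between the ages in MT72, and the looser thresholds gave 5 in JN_40 versus JN_30. With only the compared groups in the fit, the adjusted p gave 1, 1 and 8 in the first 3 of these comparisons. With voom on estimated reads it gave 4 between the lines at 30 d and 1 between the ages in MT72, and the looser thresholds gave 4 in JN_40 versus JN_30. A pseudocount of 0.01 gave 5 calls in MT_30 versus JN_30, and array weights gave 10 in MT_40 versus MT_30. Quantile normalization gave 2 calls in MT_30 versus JN_30, and 20 and 14 transcripts past the looser thresholds at 30 and 40 d. For a different stage effect the looser thresholds gave 3 with rescaled FPKM and 5 with array weights, against 0. The cause of these shifts was not tested.

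Leaving out 1 library gave 3 to 12 calls at the adjusted p in MT_30 versus JN_30, 2 to 7 in MT_40 versus JN_40, 0 to 8 in MT_40 versus MT_30, 0 to 2 in JN_40 versus JN_30 and 0 to 0 for a different stage effect. At the looser thresholds it gave 27 to 36, 14 to 25, 8 to 19, 4 to 13 and 0 to 8 in the same order. A mean of at least 5 FPKM would have selected 120 transcripts, a mean of at least 20 selected 41, a mean of at least 10 in each group 35 and a median of at least 10 selected 52, while leaving out 1 library gave 66 to 70. The replicate numbers did not pair the samples, with correlations of same-numbered deviations of -0.159 to 0.0136, and a fit with the replicate block gave 8 calls at 30 d and 4 at 40 d at the adjusted p, and 35 and 20 past the looser thresholds. FPKM without read counts limit the precision of transcripts near 0.1 FPKM, which rest on few reads.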
